A study of Arabidopsis thaliana with 18 samples.

Results

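The genes described here are the expansins and the xyloglucan endotransglucosylase/hydrolases (XTHs) of Arabidopsis thaliana roots, chosen by their gene symbols: 30 XTH genes, 17 α-expansins (EXPA), 4 β-expansins (EXPB), 3 expansin-like A genes (EXLA) and 1 expansin-like B gene (EXLB). They make up 55 of the 25177 genes in the deposited table. The root hair expansins EXPA7 and EXPA18 were left out by the rule that chose the genes. Of the 55 genes, 46 passed the filter on low counts and were tested, and 9 did not (XTH1, XTH2, XTH3, XTH6, XTH25, EXPA16, EXPA21, EXPB2 and EXPB6).

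The growing plant cell wall holds cellulose microfibrils that are tethered and coated by the hemicellulose xyloglucan. XTH enzymes cut xyloglucan chains and either join the new end to another chain or leave it hydrolysed, and expansins loosen the contact between cellulose and matrix polysaccharides without cutting them. Both families have many members, of which single ones mark particular zones and cell types of the root, and both act in cell elongation, root hair outgrowth and the walls of vascular cells.

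RNA was sequenced from root tips in 18 libraries, 3 per genotype, which the labels call biological replicates. All plants were of the Col-0 accession and grew on the same sucrose-containing medium in long days. Seedling age is 4 days by the sample titles and 3 days by the series design, so it is uncertain by that difference. The genotypes were the single mutant rab8d-2, which lacks normal function of the plastid translation factor EF-Tu, the double mutants nac103-11 rab8d-2 as well as gun1-101 rab8d-2, the wild type (WT), and the single mutants gun1-101 and nac103-11, which affect a plastid signalling protein and a NAC transcription factor. The 9 libraries of the first 3 genotypes are called rab8d-2 carriers below, and the 9 libraries of WT, gun1-101 and nac103-11 non-carriers. The labels give no second allele or complemented line, so each mutation is represented by a single allele.

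Total counts lay between 22625981 and 23090995 per library. The gene mutated in rab8d-2, listed as RABE1b, had 5.88 to 18.9 CPM in carriers, against 86.1 to 176 CPM in non-carriers (CPM are counts per 1e6 counts after TMM scaling). GUN1 had 47.7 to 58.0 CPM in gun1-101 rab8d-2 and 68.4 to 91.7 CPM in gun1-101, against 133 to 166 CPM in WT. It was also low in nac103-11 rab8d-2, at 72.3 to 77.9 CPM, which carries no gun1 allele, and had 91.6 to 120 CPM in rab8d-2, so its level alone does not tell gun1-101 from nac103-11 rab8d-2. NAC103 had 0.0841 to 0.185 CPM in nac103-11 and 0.539 to 1.99 CPM in WT. NAC103 was higher in the rab8d-2 background, at 3.25 to 8.35 CPM in nac103-11 rab8d-2 and 11.4 to 29.7 CPM in rab8d-2. The least alike replicates were WT replicate 3 and, among the nac103-11 rab8d-2 libraries, replicate 3, with a chi-square per degree of freedom of 144 to 177 against the others of the same genotype. gun1-101 rab8d-2 replicates 1 and 2 were much closer to each other (2.12) than any other pair of replicates (11.9 to 177), though they differed by more than sampling noise. Whether they come from separate plants or from 1 sample prepared or sequenced in 2 runs cannot be told from these data. Because the labels call them biological replicates, they were kept as 2 libraries and also tried as 1.

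Roots of the rab8d-2 carriers also differed in markers of cell types. The summed level of 9 root hair markers was 48.2 to 170 CPM in carriers, against 251 to 1149 CPM in non-carriers, and 8 of the 9 were lower. These markers include EXPA7 and EXPA18, the expansins that the rule left out. The sum of 8 endodermis markers was 144 to 640 CPM in carriers and 699 to 1359 CPM in non-carriers, with 7 lower and 1 higher, and that of 7 xylem markers was 35.6 to 167 CPM in carriers and 283 to 526 CPM in non-carriers, with 7 lower. Markers of the root meristem summed to 74.0 to 144 CPM in carriers and 57.6 to 86.1 CPM in non-carriers, and 5 of 5 were higher. They include WOX5, PLT1 and PLT2 of the stem cell niche, so their sum is no measure of dividing cells alone. Root cap markers (3 of 5 lower) summed to 36.4 to 92.4 CPM in carriers and 61.9 to 132 CPM in non-carriers. Shoot markers (5 of 6 lower) summed to 8.29 to 688 CPM in carriers and 51.2 to 536 CPM in non-carriers. The 688 CPM were those of rab8d-2 replicate 1, with 599 CPM from RBCS1A, and the other carriers had at most 95.6 CPM. All 6 are photosynthesis genes, and the rab8d-2 mutation affects plastid translation. Their levels may change for that reason, so they cannot serve as a check for shoot tissue, and its presence was not tested. No marker was at 0 in all libraries of either side. In these bulk samples, fewer cells of a type and less RNA per cell cannot be told apart, and the part of cell composition in the results below was not tested.

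The sequences before 3 XTH genes that had among the lowest levels in carriers relative to non-carriers are shown here because they share a stretch. XTH12 (AT5G57530, chr5:23300321-23301689) and XTH13 (AT5G57540, chr5:23302787-23304095) are neighbours on the minus strand of chromosome 5, and XTH14 (AT4G25820, chr4:13130291-13131860) lies on the plus strand of chromosome 4. The 250 bases before each annotated gene start, 5′ to 3′ on the gene's strand (RefSeq, TAIR10.1), were as follows, with capitals marking a stretch of 39 bases shared by XTH13 and XTH14.
XTH12, chr5:23301690-23301939, minus strand: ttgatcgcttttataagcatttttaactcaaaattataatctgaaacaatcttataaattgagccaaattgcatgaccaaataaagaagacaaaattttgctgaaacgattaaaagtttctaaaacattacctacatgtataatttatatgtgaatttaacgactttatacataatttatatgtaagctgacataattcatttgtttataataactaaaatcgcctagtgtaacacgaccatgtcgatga
XTH13, chr5:23304096-23304345, minus strand: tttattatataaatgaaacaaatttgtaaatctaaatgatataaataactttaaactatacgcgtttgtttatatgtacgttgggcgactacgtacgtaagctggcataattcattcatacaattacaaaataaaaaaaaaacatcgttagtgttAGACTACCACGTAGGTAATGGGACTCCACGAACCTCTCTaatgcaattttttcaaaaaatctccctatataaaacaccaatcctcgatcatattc
XTH14, chr4:13130041-13130290, plus strand: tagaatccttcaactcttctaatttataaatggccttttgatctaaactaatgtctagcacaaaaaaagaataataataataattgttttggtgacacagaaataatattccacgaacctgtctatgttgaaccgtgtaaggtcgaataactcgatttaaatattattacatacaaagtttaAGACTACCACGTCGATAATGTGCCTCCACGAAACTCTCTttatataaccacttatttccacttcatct

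The shared stretch was found by reading these promoters side by side, after the values were known, and is a description. It runs from 95 to 57 bases before the start of XTH13 (chr5:23304152-23304190) and from 68 to 30 bases before the start of XTH14 (chr4:13130223-13130261). The copies match at 34 of 39 positions, in capitals below, with the positions that differ in lower case.
XTH13: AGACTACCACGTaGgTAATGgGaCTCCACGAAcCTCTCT
XTH14: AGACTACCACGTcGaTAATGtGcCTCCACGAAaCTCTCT
In the other promoters of the 27443 that were searched, the best ungapped match to the stretch held 25 of 39 bases. XTH12 holds a copy that matches at 32 of 39 positions, placed across its annotated start, from 18 bases before to 21 bases into the gene, so only 17 matches fall at best in its promoter window. XTH26, which had a like pattern of levels, XTH25, TCH4 and XTR6 had at best 20 matches. The root hair element, a motif of root hair genes that was searched by its name's consensus on both strands, was in the 250-base window of 0 of the 55 genes and of 0.754% of all promoters.

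The highest levels per length in WT roots were those of XTH24, at 249 ± 90.7 TPM (SD, n = 3). XTH4 followed at 148 ± 42.6 TPM, XTH14 at 134 ± 84.9 TPM, XTH30 at 126 ± 5.48 TPM and XTH15 at 121 ± 36.2 TPM. XTH18 had 106 ± 15.7 TPM, EXPA4 102 ± 39.1 TPM and EXPA9 97.3 ± 29.4 TPM. From XTH4 down, each gene lay within the spread of its neighbours in this order.

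Summed over the 30 XTH genes, the level was 463 to 1216 TPM in carriers (median 877 TPM), against 1155 to 1733 TPM in non-carriers (median 1419 TPM). The highest carrier, nac103-11 rab8d-2 replicate 3, lay above the lowest non-carriers. The 17 EXPA genes summed to 405 to 714 TPM in carriers (median 467 TPM) and 363 to 534 TPM in non-carriers (median 386 TPM), ranges that overlapped. The 4 EXPB genes summed to 19.9 to 61.1 TPM in carriers and 54.5 to 146 TPM in non-carriers. The EXLA sum was 39.6 to 390 TPM in carriers, with the 2 highest in gun1-101 rab8d-2 replicates 1 and 2, against 40.0 to 155 TPM in non-carriers. So the XTH and EXPB sums were mostly lower in carriers, while the EXPA and EXLA sums were not.

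**Figure D1:**
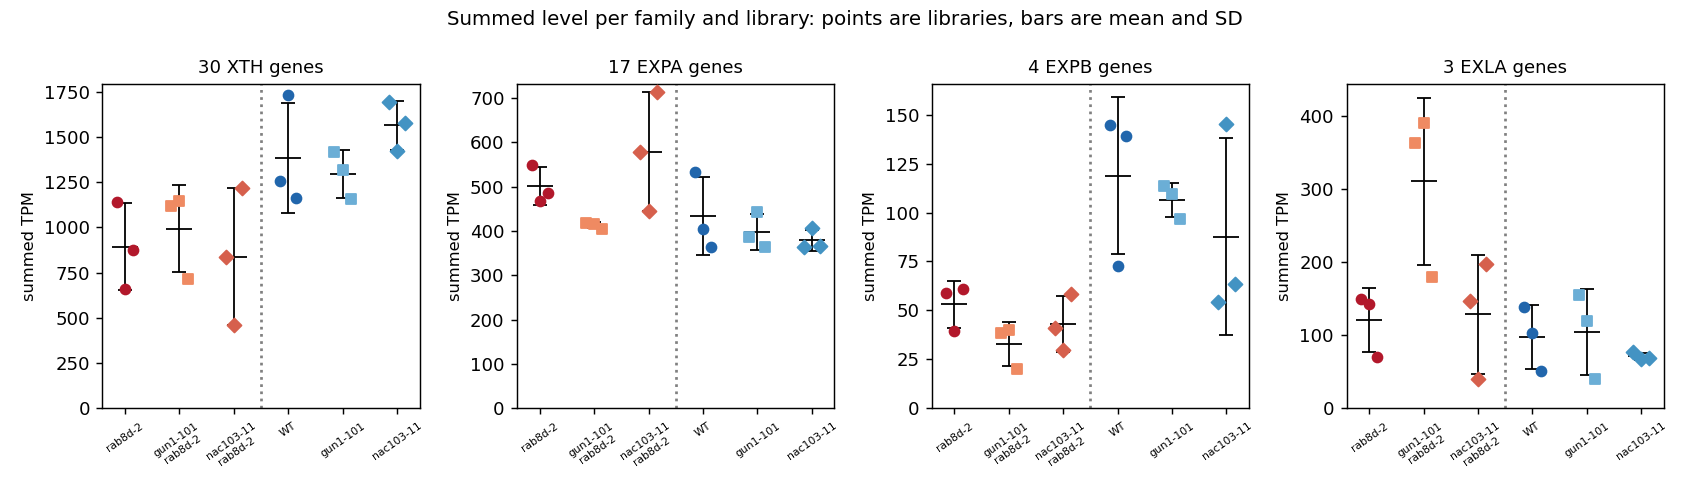
Summed TPM (linear axis from 0) of the XTH, EXPA, EXPB and EXLA genes in each library, by genotype, with carriers left of the dotted line; bars are the mean and SD of 3 libraries. The XTH sums were 463 to 1216 TPM in carriers and 1155 to 1733 TPM in non-carriers, and the EXPA sums of the 2 sides overlap.

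Over the 3 rab8d-2 genotypes against the 3 others, each genotype weighted equally, 27 of the 46 tested genes changed (edgeR's quasi-likelihood test, Benjamini-Hochberg adjusted p below 0.05 over 21004 genes). Of all genes tested, 51.6% were called in this comparison, so the share of called members (58.7%) was near the background. The directions were 8 higher and 19 lower, where 27.1% of all genes were higher and 24.5% lower. The median log2 fold change was -0.31 over the tested members and 0.07 over all genes. The families differed in count: of the 25 XTH genes 15 fell and 3 rose (median -0.79), of the 15 EXPA genes 2 fell and 4 rose (median 0.21), both EXPB genes fell, none of the 3 EXLA genes was called (1 had an unadjusted p below 0.05, as did 58% of all genes), and EXLB1 rose. With the least alike libraries, replicate 3 of WT and of nac103-11 rab8d-2, left out together, 31 members were called, 26 lower and 5 higher, where 64.9% of all genes were called, 30.9% lower and 34% higher. On a log2(TPM + 1) scale, which moves the median of all genes by 0.101 in this comparison, the members split 11 higher and 18 lower and all genes 7282 higher and 4168 lower, against 5683 and 5151 on the count scale. Libraries of the 2 sides did not overlap for 7 lower genes (XTH8, XTH12, XTH13, XTH15, XTH21, XTH30 and EXPB1) and 1 higher gene (EXPA12), where 6.93% of all genes did not overlap (4.5% lower and 2.43% higher).

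**Figure D2:**
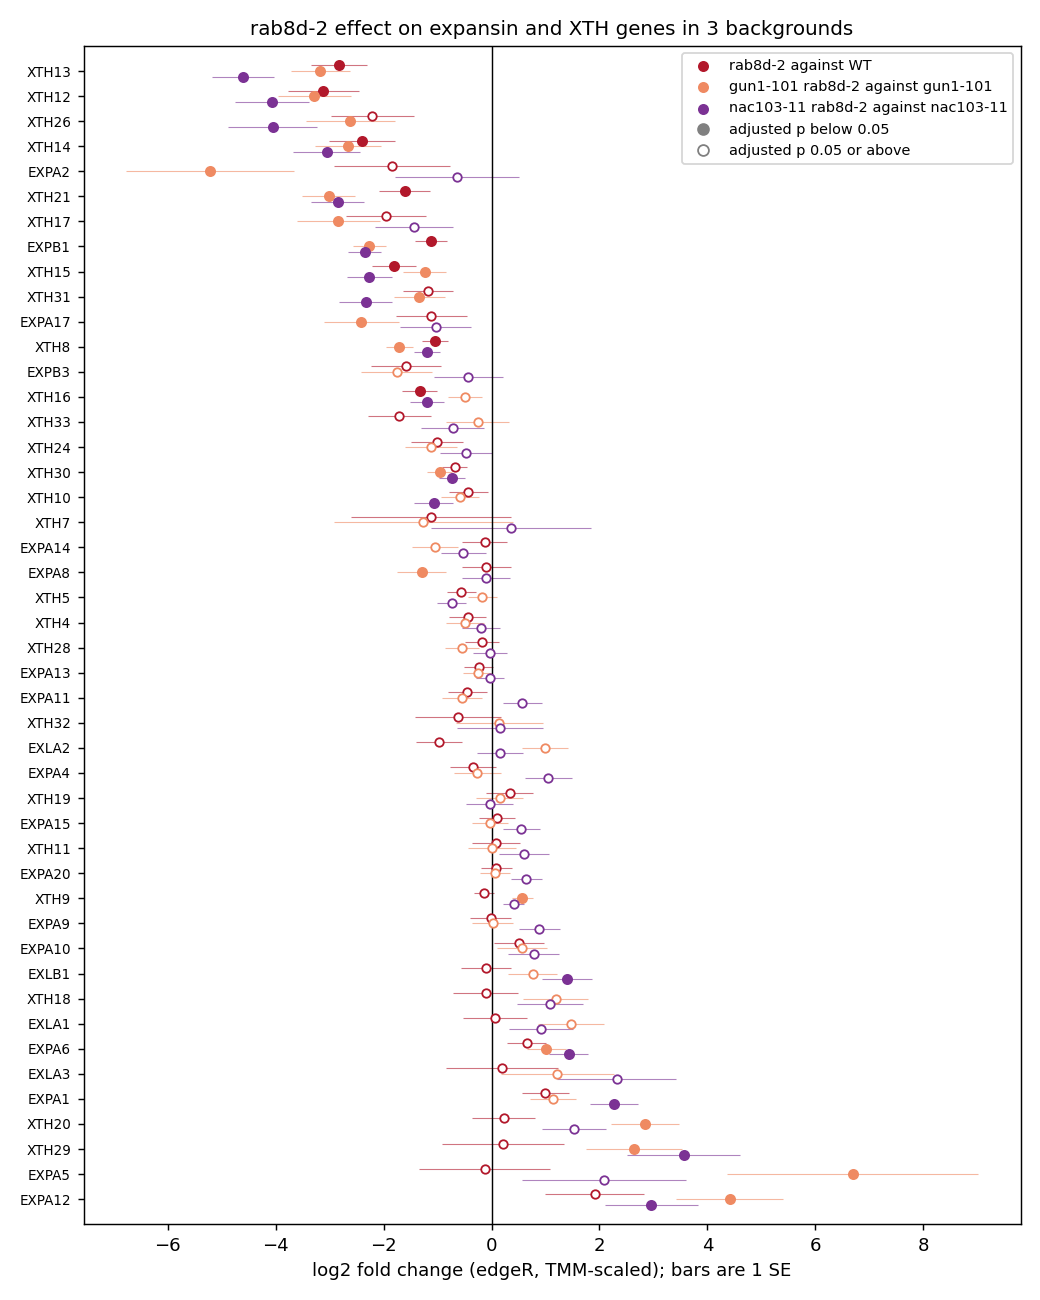
Log2 fold change of each tested gene (x axis, edgeR; bars are 1 SE) for rab8d-2 against WT, gun1-101 rab8d-2 against gun1-101 and nac103-11 rab8d-2 against nac103-11, ordered by the change in carriers against non-carriers; filled points have an adjusted p below 0.05. The XTH genes at the top lie left of 0 in all 3 comparisons, and no point right of 0 is filled for rab8d-2 against WT.

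The deepest falls in carriers were in the root-expressed genes XTH13, XTH12, XTH26 and XTH14. XTH26 and XTH14 encode enzymes known at the surface of roots and root hairs. XTH13 had 5.19, 2.45 and 3.20 CPM in rab8d-2, 1.73, 1.92 and 0.980 CPM in gun1-101 rab8d-2 and 2.18, 0.833 and 2.44 CPM in nac103-11 rab8d-2, against 10.3, 46.0 and 20.5 CPM in WT, 17.8, 11.7 and 12.2 CPM in gun1-101 and 51.0, 26.6 and 52.9 CPM in nac103-11. Every carrier library lay below every non-carrier library, and XTH13 fell by 3.53 on the log2 scale (SE 0.32, adjusted p = 1.37e-06, edgeR). XTH12, whose coding sequence is 89.4% identical to that of XTH13, had 1.39 to 7.94 CPM in carriers (median 2.45 CPM), against 12.7 to 85.8 CPM in non-carriers (median 25.4 CPM). It fell by 3.49 (SE 0.39, adjusted p = 7.72e-06, edgeR), again without overlap.

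XTH14 had 43.4, 25.1 and 34.3 CPM in rab8d-2, 12.5, 12.2 and 13.3 CPM in gun1-101 rab8d-2 and 18.4, 9.56 and 65.1 CPM in nac103-11 rab8d-2, against 105, 333 and 104 CPM in WT, 117, 55.4 and 66.5 CPM in gun1-101 and 286, 183 and 297 CPM in nac103-11. Only nac103-11 rab8d-2 replicate 3 reached above the lowest non-carrier library in CPM, and the log2 fold change was -2.70 (SE 0.35, adjusted p = 2.92e-05, edgeR). That library had the lowest TMM factor (0.706), which raises its CPM. In TPM its XTH14 level of 39.5 lay below the lowest non-carrier, gun1-101 replicate 2 at 46.6. XTH26 ranged from 0.704 to 6.10 CPM in carriers and from 2.02 to 65.0 CPM in non-carriers, with 65.0, 17.1 and 59.1 CPM in nac103-11 and 37.5 CPM in WT replicate 2. Its fold change was -2.96 on the log2 scale (SE 0.46, adjusted p = 0.000128, edgeR). The root hair marker sum was highest in WT replicate 2 (1149 CPM) and in the nac103-11 libraries (768 to 1140 CPM), and its part in these values was not tested.

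**Figure D3:**
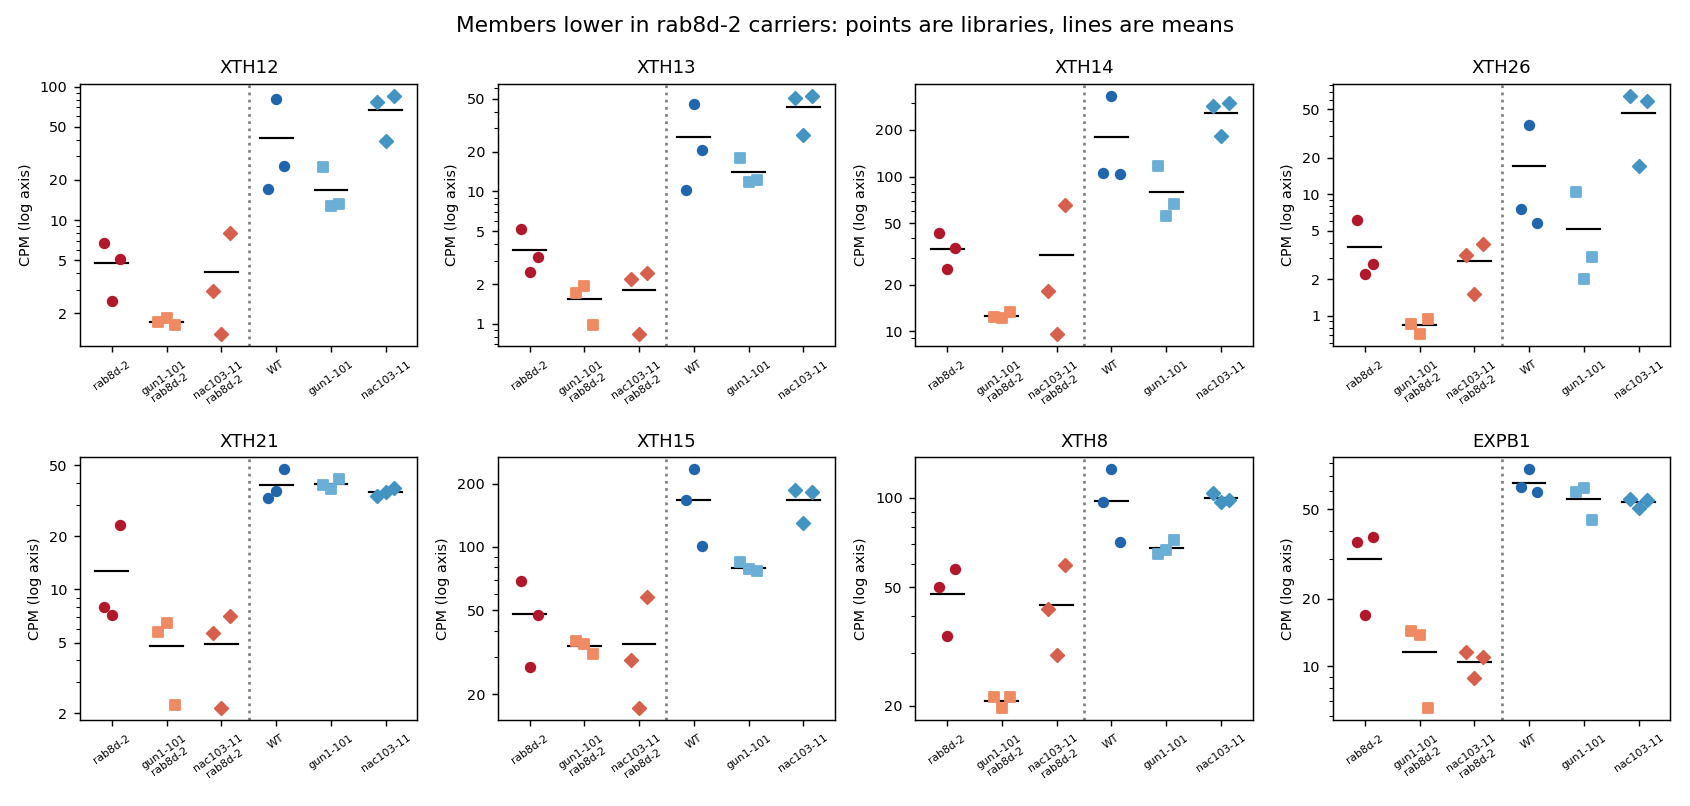
CPM of 8 genes that fell in carriers, by library and genotype (log axis; points are libraries, lines are means of 3), with carriers left of the dotted line. For XTH12, XTH13, XTH21, XTH15, XTH8 and EXPB1 all carriers lie below all non-carriers, while XTH14 and XTH26 overlap.

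Other XTH genes fell less far, and XTH8, XTH15, XTH21 and XTH30 did so without overlap between carriers and non-carriers. XTH21, which acts in primary root elongation, had 7.96, 7.20 and 23.0 CPM in rab8d-2, 5.76, 6.49 and 2.22 CPM in gun1-101 rab8d-2 and 5.66, 2.14 and 7.06 CPM in nac103-11 rab8d-2, against a narrow 32.7 to 47.6 CPM in the 9 non-carriers. It fell by 2.49 on the log2 scale (SE 0.28, adjusted p = 8.15e-06, edgeR). XTH15, known from growth responses to shade, had 17.1 to 69.1 CPM in carriers (median 34.7 CPM) and 76.6 to 234 CPM in non-carriers (median 130 CPM), and fell by 1.77 (SE 0.24, adjusted p = 3.30e-05, edgeR). The counts of XTH15 were fractional in all 18 libraries, so the reads it shares with other genes make its level uncertain. Its close relative XTH16 (80.8% identical) had 10.5 to 34.3 CPM in carriers and 15.7 to 47.2 CPM in non-carriers, which overlap, and fell by 1.00 (SE 0.18, adjusted p = 0.000445). XTH8 had 19.6 to 59.3 CPM in carriers and 64.7 to 125 CPM in non-carriers (log2 fold change -1.31, SE 0.14, adjusted p = 6.13e-06), with the lowest values, 19.6 to 21.4 CPM, in gun1-101 rab8d-2. XTH30, one of the most abundant members, had 73.5 to 153 CPM in carriers and 158 to 218 CPM in non-carriers and fell by 0.79 (SE 0.14, adjusted p = 0.000265).

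XTH17 had 5.08 to 104 CPM in carriers (median 13.5 CPM) and 72.0 to 148 CPM in non-carriers (median 98.9 CPM). The 104 CPM were those of nac103-11 rab8d-2 replicate 3, and the other 8 carriers lay between 5.08 and 41.8 CPM; the fold change was -2.07 on the log2 scale (SE 0.43, adjusted p = 0.00108, edgeR). XTH31, of the clade with predominantly hydrolytic enzymes, fell by 1.62 (SE 0.27, adjusted p = 0.00025), at 11.2 to 56.1 CPM in carriers and 27.6 to 170 CPM in non-carriers. XTH24, the most abundant member in WT, had 64.8 to 286 CPM in carriers and 174 to 590 CPM in non-carriers (log2 fold change -0.86, adjusted p = 0.0181). Smaller falls were called for XTH33 (-0.89, adjusted p = 0.0366), XTH10 (-0.69, adjusted p = 0.0120) and XTH5 (-0.49, adjusted p = 0.0175). The call on XTH33 was lost without any 1 of 10 of the 18 libraries.

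Both tested β-expansins fell. EXPB1 had 35.8, 17.0 and 37.5 CPM in rab8d-2, 14.3, 13.8 and 6.52 CPM in gun1-101 rab8d-2 and 11.6, 8.89 and 11.1 CPM in nac103-11 rab8d-2, against 44.8 to 75.2 CPM in the 9 non-carriers. It fell by 1.91 on the log2 scale (SE 0.18, adjusted p = 1.60e-06, edgeR), and the double mutants lay below rab8d-2. EXPB3 scattered widely, at 16.9 to 105 CPM in carriers and 21.1 to 171 CPM in non-carriers, and fell by 1.26 (SE 0.37, adjusted p = 0.0116). Among the α-expansins, EXPA17, which acts in lateral root formation, had 1.35 to 11.8 CPM in carriers and 5.75 to 19.8 CPM in non-carriers and fell by 1.52 (SE 0.39, adjusted p = 0.00452). EXPA2, known from germinating seeds, was low throughout, at 0 to 3.40 CPM in carriers and 0.252 to 10.2 CPM in non-carriers, and fell by 2.56 (SE 0.75, adjusted p = 0.0104).

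A smaller group rose in carriers, made up of 4 EXPA genes, 3 XTH genes and EXLB1. EXPA1, known from guard cells and lateral root founder cells, had 44.9, 25.6 and 43.4 CPM in rab8d-2, 52.8, 58.0 and 50.9 CPM in gun1-101 rab8d-2 and 40.9, 67.0 and 152 CPM in nac103-11 rab8d-2, against 9.33 to 32.1 CPM in the 9 non-carriers. All carriers but rab8d-2 replicate 2 lay above all non-carriers, and EXPA1 rose by 1.47 on the log2 scale (SE 0.25, adjusted p = 0.000247, edgeR). EXPA6 rose by 1.03 (SE 0.21, adjusted p = 0.000881), at 19.8 to 68.1 CPM in carriers and 11.9 to 28.2 CPM in non-carriers. EXPA12 was near its detection limit in non-carriers (0 to 0.510 CPM) and had 0.516 to 5.88 CPM in carriers, without overlap (log2 fold change 3.10, SE 0.53, adjusted p = 0.000285). EXPA5, a target of brassinosteroid signalling, was called higher (adjusted p = 0.0348), yet its levels of 0 to 1.41 CPM in carriers and 0 to 1.83 CPM in non-carriers overlapped fully, and the call was lost without any 1 of 8 libraries.

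XTH20, which acts in the reunion of wounded tissue, was the XTH gene with the firmest rise. It had 23.4, 9.25 and 11.1 CPM in rab8d-2, 43.6, 44.0 and 18.6 CPM in gun1-101 rab8d-2 and 22.0, 18.6 and 77.3 CPM in nac103-11 rab8d-2, against 15.2, 16.6 and 5.52 CPM in WT, 6.34, 4.12 and 4.34 CPM in gun1-101 and 8.91, 22.0 and 9.97 CPM in nac103-11. Every gun1-101 rab8d-2 library lay above every gun1-101 library, in a comparison where the libraries of 64.2% of all genes did not overlap (33.3% higher and 31% lower), while nac103-11 rab8d-2 overlapped with nac103-11 and rab8d-2 with WT; over all carriers XTH20 rose by 1.53 (SE 0.34, adjusted p = 0.00199, edgeR). XTH29 rose by 2.14 (SE 0.61, adjusted p = 0.00897) at very low levels of 0 to 1.02 CPM in carriers and 0 to 0.262 CPM in non-carriers, and was not called without rab8d-2 replicate 3. The small rises of EXLB1 (0.68, adjusted p = 0.0419) and XTH9 (0.28, adjusted p = 0.0412) were also lost without single libraries, any 1 of 12 and of 10.

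XTH17, XTH18, XTH19 and XTH20 are close relatives, with 79.6% to 87.6% identity between the coding sequences of any pair, lowest for XTH17 and XTH20 and highest for XTH18 and XTH19. Their directions differed: XTH17 fell and XTH20 rose. XTH18 had 49.1 to 643 CPM in carriers and 87.8 to 186 CPM in non-carriers (log2 fold change 0.72, adjusted p = 0.0929, edgeR), and XTH19 was not called. Counts of XTH17, XTH18 and XTH19 were fractional in all 18 libraries and those of XTH20 in 14, so the division of reads among these 4 genes is uncertain.

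**Figure D4:**
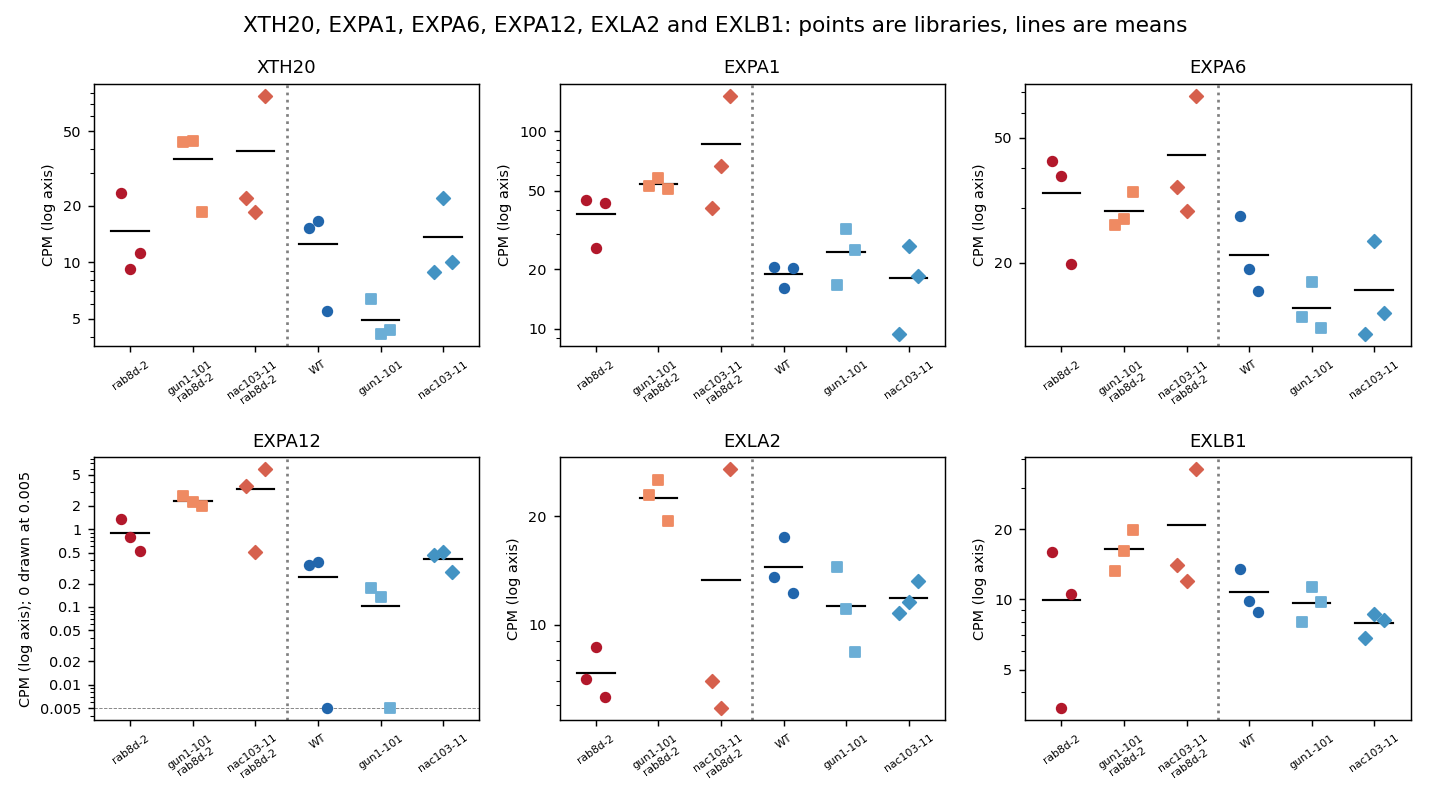
CPM of XTH20, EXPA1, EXPA6, EXPA12, EXLA2 and EXLB1 by library and genotype (log axis; points are libraries, lines are means of 3), with carriers left of the dotted line. EXPA12 does not overlap between carriers (0.516 to 5.88 CPM) and non-carriers (0 to 0.510 CPM), and EXLA2 is low in rab8d-2 and high in gun1-101 rab8d-2.

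Of the XTH genes that lie next to XTH12, XTH13 and XTH14, the tested ones, TCH4 and XTR6, were not called lower. On chromosome 5, XTH12 and XTH13 are followed, 687 bases beyond the start of XTH13, by XTH25 and then by TCH4, a touch-induced XTH gene listed under its own symbol, all on the minus strand. XTH25 had 24 counts in carriers and 40 counts in non-carriers in all, too few to test. TCH4 had 21.3 to 295 CPM in carriers and 15.2 to 207 CPM in non-carriers, with a log2 fold change of 0.93 (SE 0.50, adjusted p = 0.126). On chromosome 4, XTR6 ends 364 bases before XTH14 and had 15.3 to 212 CPM in carriers and 23.9 to 109 CPM in non-carriers (log2 fold change 0.62, SE 0.38, adjusted p = 0.179). Whether these neighbours differ in response was not tested.

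**Figure D5:**
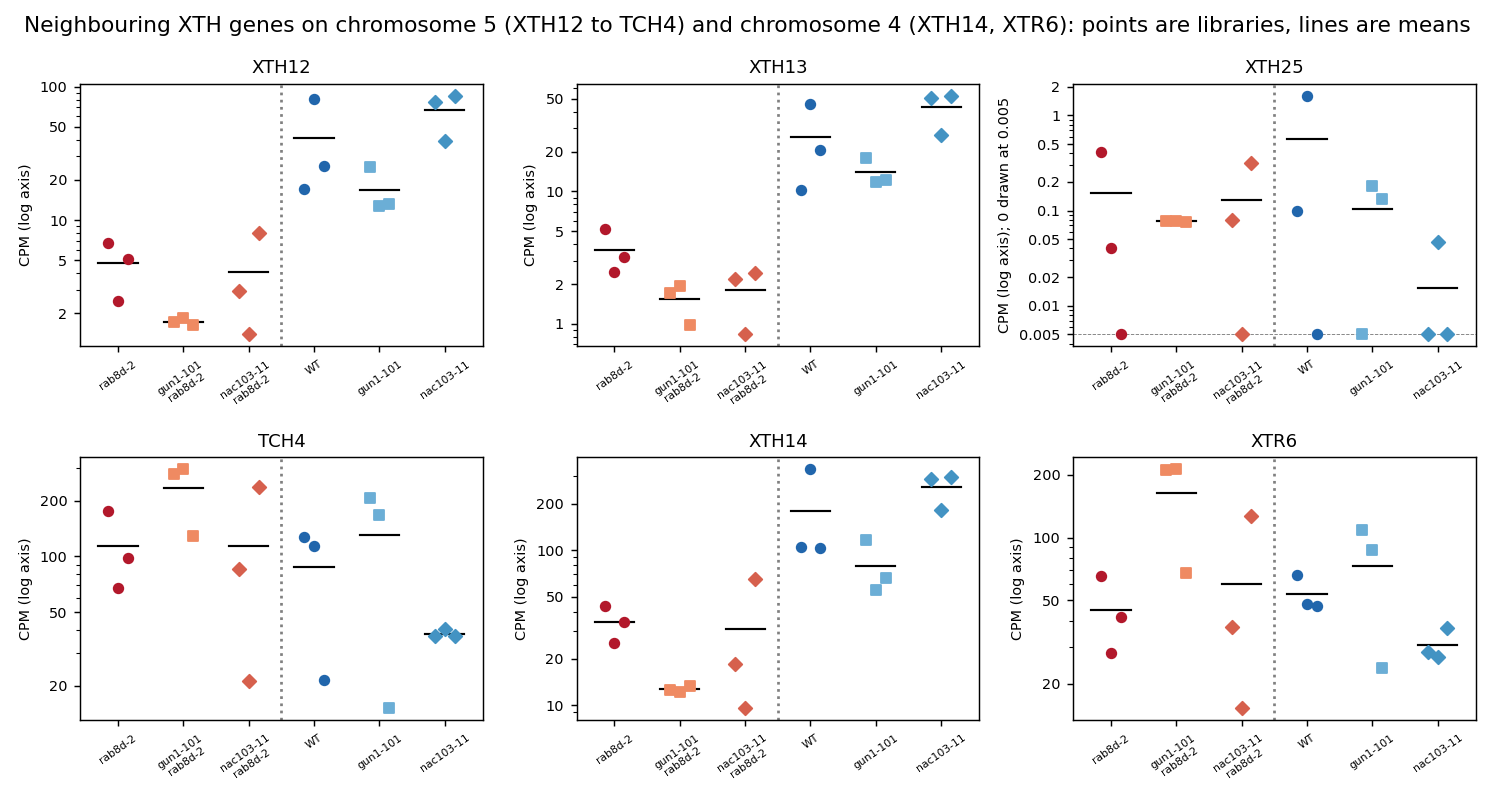
CPM of the XTH genes that lie side by side on chromosome 5 (XTH12, XTH13, XTH25, TCH4) and on chromosome 4 (XTH14, XTR6), by library and genotype (log axis; 0 drawn at the lowest line in the XTH25 panel; lines are means of 3), with carriers left of the dotted line. XTH12, XTH13 and XTH14 are lower in carriers, while TCH4 and XTR6 overlap between carriers and non-carriers.

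In rab8d-2 against WT, the study's single-mutant comparison, 8 genes fell and 0 rose. Of all genes tested, 12.3% were called, with 4.8% higher and 7.5% lower. The 8 were XTH12 (-3.12, SE 0.66, adjusted p = 0.0111, edgeR), XTH13 (-2.82, SE 0.52, adjusted p = 0.00635), XTH14 (-2.40, SE 0.60, adjusted p = 0.0222), XTH15 (-1.80, SE 0.41, adjusted p = 0.0144), XTH21 (-1.61, SE 0.47, adjusted p = 0.0387), XTH16 (-1.33, SE 0.32, adjusted p = 0.0183), EXPB1 (-1.13, SE 0.30, adjusted p = 0.0262) and XTH8 (-1.04, SE 0.24, adjusted p = 0.0166). Non-overlap was more common, with 14 genes lower and 2 higher, where 28.4% of all genes did not overlap (15.1% lower and 13.2% higher). The median log2 fold change of the tested members was -0.44, and 0.01 for all genes. Without WT replicate 2, or without rab8d-2 replicate 2, only 1 gene, XTH13, was still called, and with the 6 libraries of these genotypes alone none was. Calls over all genes fell as well, from 1009 higher and 1576 lower. They were 235 and 513 without WT replicate 2, 191 and 256 without rab8d-2 replicate 2, and 47 and 29 with the 6 libraries alone. With the 2 least alike libraries left out, 17 members were lower and 1 higher, where 37.6% of all genes were called, 16.8% lower and 20.9% higher. On the log2(TPM + 1) scale, whose median of all genes lies 0.206 higher, all genes split 1593 higher and 1143 lower against 1009 and 1576, and 8 members were lower and 1 higher.

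In the gun1-101 background, 20 genes changed in gun1-101 rab8d-2 against gun1-101, 14 lower and 6 higher, with 28.3% of all genes called. The falls included XTH12 (-3.28), XTH13 (-3.17), XTH21 (-3.02), XTH17 (-2.84), XTH14 (-2.65), XTH26 (-2.62), EXPA17 (-2.41) and EXPB1 (-2.26), all with adjusted p between 0.000184 and 0.0285 (edgeR). XTH8 fell by 1.71, XTH31 by 1.34, EXPA8 by 1.29, XTH15 by 1.24 and XTH30 by 0.96. EXPA2 had 3 counts in gun1-101 rab8d-2 against 111 counts in gun1-101, a ratio of 42.2-fold lower (95% counting interval 14.1 to 208). Of all genes, 15.7% were called lower and 12.7% higher. The rises were in EXPA12 (4.41, adjusted p = 0.0049), XTH20 (2.84, adjusted p = 0.00416), XTH29 (2.64, adjusted p = 0.0382), EXPA6 (1.02, adjusted p = 0.0453), XTH9 (0.57, adjusted p = 0.0334) and EXPA5, which had 43 counts in gun1-101 rab8d-2 and 0 in gun1-101 and so was at least 12.6-fold higher (floor of 3 counts over the group).

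This count was lower without any 1 of the 6 libraries. Without gun1-101 rab8d-2 replicate 1, 2 or 3 it was 10, 11 and 9, without gun1-101 replicate 1, 2 or 3 it was 13, 12 and 13, and with gun1-101 rab8d-2 replicates 1 and 2 summed into 1 library it was 11. Calls over all genes fell too, from 2658 higher and 3288 lower. They were 1466 to 1981 higher and 2227 to 2539 lower without 1 library, and 1661 and 2247 with the summed replicates. With the 2 least alike libraries of the other genotypes left out, the count of members was 28, where 44.9% of all genes were called. In these 2 genotypes the deviations of same-numbered libraries correlated weakly (0.107 to 0.185), and with the replicate number as a block the count was 15: XTH9, XTH29, XTH31, EXPA5, EXPA6 and EXPA8 were not called (adjusted p = 0.0513 to 0.068, edgeR), and EXPA14 was. The 9 genes that kept their call without each of the 6 libraries were XTH8, XTH12, XTH13, XTH14, XTH20, XTH21, XTH30, EXPA12 and EXPB1. On the log2(TPM + 1) scale, whose median of all genes lies 0.157 higher, 10 members were lower and 8 higher, and all genes split 3553 higher and 2582 lower against 2658 and 3288.

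In the nac103-11 background, 17 genes changed in nac103-11 rab8d-2 against nac103-11, 12 lower and 5 higher, with 29% of all genes called (14.3% lower and 14.7% higher). The largest falls were those of XTH13 (-4.60, adjusted p = 0.000147, edgeR), XTH12 (-4.07, adjusted p = 0.000953), XTH26 (-4.06, adjusted p = 0.00277) and XTH14 (-3.05, adjusted p = 0.00278). XTH21 (-2.85), EXPB1 (-2.35), XTH31 (-2.33), XTH15 (-2.27), XTH16 (-1.19), XTH8 (-1.19), XTH10 (-1.07) and XTH30 (-0.73) also fell. The rises were in XTH29, which had 38 counts in nac103-11 rab8d-2 and 3 in nac103-11 (ratio 12.8, 95% counting interval 4.05 to 64.6), EXPA12 (2.96, adjusted p = 0.0186), EXPA1 (2.27, adjusted p = 0.00217), EXPA6 (1.43, adjusted p = 0.00922) and EXLB1 (1.39, adjusted p = 0.0356). The count was 12 to 23 with each of the 6 libraries left out in turn, and 11 of the 17 kept their call in each such fit. Over all genes these fits called 1934 to 2963 higher and 2086 to 3916 lower, against 3089 and 2997 with all libraries. With the 2 least alike libraries left out, the count of members was 25, where 41% of all genes were called.

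The 3 comparisons use separate libraries but come from 1 fit and share its estimate of spread, so their calls are not independent. Set side by side, 7 genes were called lower in each of them: XTH8, XTH12, XTH13, XTH14, XTH15, XTH21 and EXPB1. None was called higher in all 3. In rab8d-2 against WT, only XTH13 kept its call in every fit that left out 1 of the compared libraries. Against their own parents, the double mutants shared 10 lower genes, the same 7 with XTH26, XTH30 and XTH31, and 3 higher genes, EXPA6, EXPA12 and XTH29. Taken singly, the comparisons in the WT, gun1-101 and nac103-11 backgrounds called 7.5%, 15.7% and 14.3% of all genes lower. The shares called higher were 4.8%, 12.7% and 14.7%. How many of all genes were shared in this way was not counted, so these overlaps are a description. EXPA1 was higher in every carrier genotype in mean but was called in the nac103-11 background and not in the others (log2 fold change 1.00, adjusted p = 0.131 in rab8d-2 against WT, and 1.14, adjusted p = 0.0586 in gun1-101 rab8d-2 against gun1-101).

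The interaction tests ask whether the rab8d-2 effect differed with GUN1 or NAC103 mutated. For gun1-101 and rab8d-2 no member passed (edgeR; DESeq2 also called 0), with 0.195% of all genes called; 6 had an unadjusted p below 0.05, as did 10% of all genes. For nac103-11 and rab8d-2 no member passed either (DESeq2 0), with 0.00952% of all genes called; 4 had an unadjusted p below 0.05, against 15.9% of all genes. The members closest to the threshold were EXLA2 (1.96, adjusted p = 0.219), XTH20 (2.61, adjusted p = 0.239) and EXPB1 (-1.14, adjusted p = 0.319) for gun1-101, and EXPB1 (-1.22, adjusted p = 0.214) for nac103-11. The gun1-101 interaction of EXLA2 passed in 3 of 22 alternative fits (adjusted p 0.00551 to 0.446) and that of XTH20 in 1 of 22 (0.0291 to 0.471). Without the 2 least alike libraries, EXLA2 (2.01, SE 0.29, adjusted p = 0.00551, edgeR) and XTH20 (2.91, SE 0.63, adjusted p = 0.0291) passed, where 3.53% of all genes were called. EXLA2 also passed on the log2(TPM + 1) scale (adjusted p = 0.04, limma; 1.35% of all genes called) and with the libraries of the compared genotypes alone (adjusted p = 0.0338, edgeR; 0.495% called).

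Set directly against rab8d-2, gun1-101 rab8d-2 had lower XTH8 (-1.19, SE 0.25, adjusted p = 0.0163, edgeR) and EXPB1 (-1.38, SE 0.30, adjusted p = 0.0201) and higher EXLA2 (1.61, SE 0.43, adjusted p = 0.0500), with 4.18% of all genes called (1.68% lower and 2.5% higher). EXPB1 was also lower in nac103-11 rab8d-2 than in rab8d-2 (-1.52, SE 0.30, adjusted p = 0.0272), the single member called there, with 2.54% of all genes called (1.26% lower and 1.29% higher). These calls are fragile: in the first comparison the count was 0, 3 and 0 without rab8d-2 replicate 1, 2 or 3 and 1, 0 and 1 without gun1-101 rab8d-2 replicate 1, 2 or 3. In the second it was 0 without rab8d-2 replicate 1 or 3 or nac103-11 rab8d-2 replicate 3, and 3 without nac103-11 rab8d-2 replicate 1. Over all genes, fits without 1 library called 159 to 392 higher and 50 to 494 lower in the first, against 526 and 352. In the second such fits called 18 to 686 higher and 27 to 509 lower, against 270 and 264. EXPA2 had 3 counts in gun1-101 rab8d-2 against 115 counts in rab8d-2, a ratio of 40.4-fold lower (95% counting interval 13.5 to 199), and was not called (adjusted p = 0.0746).

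The single mutants gun1-101 and nac103-11 did not differ from WT at the threshold in any member. For gun1-101 against WT, DESeq2 also called 0, with 0.019% of all genes called by edgeR, and 11 of the 46 members had an unadjusted p below 0.05, where 7.09% of all genes did. The median log2 fold change was -0.49 over the members and -0.02 over all genes. The lowest adjusted p were those of XTH5 (-1.09, adjusted p = 0.43) and XTH16 (-1.22, adjusted p = 0.483), chosen after their values were seen: XTH16 had 18.5, 15.7 and 20.9 CPM in gun1-101 and 41.8, 45.7 and 41.3 CPM in WT, without overlap, which held for 13% of all genes. EXPA5 had 0 counts in gun1-101 and 37 in WT, 34 of them in WT replicate 2. For nac103-11 against WT, 1 member had an unadjusted p below 0.05, where 6.49% of all genes did, and DESeq2 called 0, with 0.00952% of all genes called by edgeR. Without the 2 least alike libraries, 9 members were called in gun1-101 against WT, all lower, where 18.6% of all genes were called and 7.3% were lower. In nac103-11 against WT 1 was called, where 5.75% of all genes were.

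The 9 genes too low to test had at most 46 counts on either side. XTH2 had 0 counts in carriers and 31 in non-carriers, spread over 8 of the 9 libraries, and XTH25 was concentrated in WT replicate 2, at 1.62 CPM. EXPB2 had 26 counts in carriers, 13 of them in nac103-11 rab8d-2 replicate 3 (0.813 CPM), and 3 in non-carriers. Carriers had 30 counts of EXPA16 and non-carriers 45, carriers 30 of EXPA21 and non-carriers 46, and carriers 9 of XTH6 and non-carriers 5. Carriers had 4 counts of XTH3 and non-carriers 1, and XTH1 and EXPB6 had 1 count each in carriers and 0 in non-carriers.

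Related wall genes outside the 2 families moved as follows in carriers against non-carriers. The lists were drawn up from textbook knowledge, with earlier results of these data known. Of the 3 XTH genes listed under other symbols, EXGT-A3 fell (-0.73, SE 0.15, adjusted p = 0.000981, edgeR), and TCH4 and XTR6 were not called. Of 14 genes of xyloglucan synthesis and trimming, 6 fell and 0 rose (median -0.16), among them CSLC12 (-1.89, adjusted p = 2.16e-05) and CSLC5 (-0.47, adjusted p = 0.000175), of the family that makes the xyloglucan backbone, and GT18 (-1.09, adjusted p = 0.000254), a galactosyltransferase-family gene. Of 9 genes of primary wall cellulose synthesis, 7 fell and 0 rose (median -0.67), among them the endoglucanase gene GH9A1 (-1.01, adjusted p = 1.14e-05) and the cellulose synthase genes CESA2 (-0.67, adjusted p = 0.000184) and CEV1 (-0.79, adjusted p = 0.000195). All 3 lists are read against the 24.5% of all genes that fell in this comparison.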

How the data were processed

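Expected counts per gene, which are estimated counts that need not be whole, and TPM were made by the authors with RSEM 1.3.1 on TAIR10, per the submitters' processing notes; the deposited table holds both for 25177 genes and 18 libraries. Whole numbers were made by rounding, which changed 19.6% of the expected counts by more than 1e-06. The deposited TPM summed to 67.1% to 79.5% of their nominal total. The 12 columns of the authors' genotype means were not used. Strand was not stated.

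The tests used edgeR 4.0.16 in R 4.3.3. After filterByExpr, 21004 genes were left, with TMM factors of 0.706 to 1.17. The 0.706 was that of nac103-11 rab8d-2 replicate 3, whose CPM are raised by it, while the other carriers had 1.05 to 1.17. All 18 libraries entered a robust quasi-likelihood fit with a term for each genotype, from which 10 contrasts were tested; the threshold for a call was an adjusted p (Benjamini-Hochberg, over all genes tested) of 0.05. The SE is the log2 fold change divided by the root of the F statistic. With 0 counts in a genotype, up to 3 counts are allowed (0.0387 to 0.0486 CPM); 95% intervals of ratios are exact binomial (Clopper-Pearson). Both cover counting error only. p-values measure the spread between libraries labelled as biological replicates. The test was also run on counts simulated with the same spread for every gene and no unlike replicates. That check therefore does not cover the unlike libraries found here. Deviations of same-numbered libraries correlated at -0.561 to 0.461, above 0.1 in 14 of 45 pairs; by the data alone, gun1-101 rab8d-2 and gun1-101 were the only genotypes with all 3 pairs above 0.1, and there the fit with the replicate number as a block is given beside the result.

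The named genes are, per contrast, up to 10 highest and 10 lowest called members, the 8 of highest WT TPM, the members removed by the filter, the mutated genes and up to 3 called genes per related list; others are named as chosen later. The members and lists were chosen with earlier results of these data known. Alternatives used DESeq2 1.42.0, limma 3.58.1, other filters and scalings, a replicate block and left-out libraries. Positions and sequences are from RefSeq (TAIR10.1), where all 25177 gene IDs matched.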

Additional observations from a re-analysis of the deposited data

Results flagged for a closer look

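EXLA2, an expansin-like A gene, had 7.09, 8.68 and 6.32 CPM in rab8d-2, all below the 13.5, 17.5 and 12.2 CPM in WT (log2 fold change -0.97, adjusted p = 0.143, edgeR's quasi-likelihood test). It had 22.9, 25.1 and 19.4 CPM in gun1-101 rab8d-2, all above the 14.4, 11.1 and 8.38 CPM in gun1-101 (0.99, adjusted p = 0.0929). Neither difference passed the threshold; it stands out because the libraries of both comparisons did not overlap and lay in opposite directions. Of all genes, 15.1% were lower without overlap in the first comparison and 33.3% higher without overlap in the second. In nac103-11 rab8d-2 it had 5.87 to 26.9 CPM, against 10.8 to 13.2 CPM in nac103-11, which overlap. The gun1-101 interaction was 1.96 on the log2 scale (adjusted p = 0.219, edgeR), and it passed in 3 of the 22 alternatives, whose adjusted p ran from 0.00551 to 0.446: the p was 0.00551 without the 2 least alike libraries, 0.04 on log2(TPM + 1) with limma and 0.0338 with the compared genotypes alone.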

How the results depend on the processing

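No call on a member changed direction under the alternatives run. For carriers against non-carriers the count of called members (27) was 25 to 31 under the 9 alternatives and 23 to 28 with each of the 18 libraries left out; 21 genes kept their call in all of them, and XTH9, XTH10, XTH29, XTH33, EXPA5 and EXLB1 lost it at least once. For rab8d-2 against WT the count (8) was 18 when the least alike libraries, replicate 3 of WT and of nac103-11 rab8d-2, were both left out, 0 with the libraries of the compared genotypes alone, and 1 to 9 with libraries left out in turn. Over all genes, calls were 4420 higher and 3554 lower without that pair, and 47 and 29 with the compared genotypes alone. With libraries left out in turn they were 191 to 1789 higher and 256 to 1813 lower, against 1009 and 1576 in the main fit. For gun1-101 rab8d-2 against gun1-101 the count of members (20) was 11 with replicates 1 and 2 of the double mutant summed, 32 with the compared genotypes alone and 9 to 13 with libraries left out. All genes had 1661 calls higher and 2247 lower with the summed replicates, and 5437 and 5537 with the compared genotypes alone. The main fit had 2658 and 3288. For nac103-11 rab8d-2 against nac103-11 the count of members (17) was 11 with the compared genotypes alone and 12 to 23 with libraries left out. The compared genotypes alone gave 1213 genes higher and 1662 lower over all genes, against 3089 and 2997. For gun1-101 rab8d-2 against rab8d-2 (3) it was 9 without that pair of libraries, 9 with DESeq2's Wald test, 6 with the compared genotypes alone, 0 with the summed replicates and 0 to 3 with libraries left out. For nac103-11 rab8d-2 against rab8d-2 (1) it was 0 with the replicate block, 2 with DESeq2, 2 on log2(TPM + 1), 0 with the compared genotypes alone and 0 to 3 with libraries left out. Without the pair of least alike libraries, gun1-101 against WT had 9 member calls, nac103-11 against WT 1 and the gun1-101 interaction 2. That interaction had 1 on log2(TPM + 1) and 1 with the compared genotypes alone. The causes were not tested. Fits of the compared genotypes alone have fewer libraries to estimate the spread, and the part of that in their counts was not tested either. Where libraries were left out, a genotype with 2 libraries shares its spread with the others.

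Outside gun1-101 and gun1-101 rab8d-2, no pair of genotypes had all 3 correlations of same-numbered libraries above 0.1. With the replicate block the count was 8 in rab8d-2 against WT, 15 in each double mutant against its single mutant parent, 3 in gun1-101 rab8d-2 against rab8d-2 and 26 in carriers against non-carriers. In gun1-101 rab8d-2 against rab8d-2 the block lost EXLA2 (adjusted p = 0.0844, edgeR) and gained EXPA14. In carriers against non-carriers it lost XTH9 and EXLB1 and gained EXPA14. On log2(TPM + 1) the median of all genes moved by 0.127 in gun1-101 against WT, 0.112 in nac103-11 against WT, -0.14 in nac103-11 rab8d-2 against rab8d-2 and -0.242 in the nac103-11 interaction. Genes with under about 1 CPM in most libraries, such as XTH29 and EXPA5, rest on few counts, and the 9 genes below the filter were not tested. EXPA2 rests on few counts in gun1-101 rab8d-2, where it had 3.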
